A study of Mus musculus with 5 samples.

Results

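NEUROD2 is bound in the embryonic cortex at many places away from gene starts, and the regions described here are those distal places whose centre carried the E-box hexamer CATATG but neither CAGCTG nor CAGATG. Peaks of 3 NEUROD2 antibodies that shared at least 1 bp were merged, and regions seen by fewer than 2 antibodies were dropped. Of these 32261 regions, 19911 were distal, which means that their midpoint lay more than 1 kb and at most 50 kb from the closest transcription start site (TSS) of the longest transcript of a gene. A distal region was a member when the 200 bp around its midpoint held at least 1 CATATG, no CAGCTG and no CAGATG on either strand, the last of which reads CATCTG on the opposite strand. This left 1020 members, 5.12% of the distal regions, and they are called TA-only after the bases in the middle of the hexamer. For comparison, 3190 distal regions held CAGCTG alone among these hexamers (GC-only), 6100 held CAGATG alone (GA-only) and 2338 held no CANNTG of any kind.

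The chromatin came from dissected cortices of BALB/c embryos at embryonic day E14.5, pooled from several litters for each precipitation, and was sequenced after ChIP with 3 antibodies against NEUROD2 and 2 antibodies against GFP, a protein that these embryos do not make. Antibody ab1 was raised in mouse, while ab2 and ab3 were raised in rabbit and shared the rabbit GFP library as their control in peak calling. Each antibody gave 1 library of the same wild-type condition, so no biological replicate exists and a spread over antibodies is not a spread over embryos. With ab1 51841 peaks were deposited, with ab2 35310 and with ab3 7470, each with a score of 10 times the −log10 p-value of the peak caller. Scores were not scaled between libraries, and the read totals of the libraries were not used here.

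NEUROD2 is a basic helix-loop-helix (bHLH) transcription factor of postmitotic excitatory neurons. Such factors bind DNA as dimers with E proteins such as TCF4, and each partner reads one side of the E-box CANNTG, so that the middle bases and the bases beside the hexamer set which dimers bind well. CATATG is a palindrome made of the same side, CAT, read on both strands, whereas CAGCTG is built from CAG on both strands and CAGATG from one of each.

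In order to show what these centres look like, the windows of 3 members are printed first, namely the member with the highest mean log10 score over the antibodies, the higher of both members inside Sox5 and the member upstream of the proneural gene Neurog2. All sequences are the plus strand of GRCm38, the build also called mm10, from RefSeq, and capitals mark CATATG.
Upstream of Gm33056, chr10:19277348-19277547: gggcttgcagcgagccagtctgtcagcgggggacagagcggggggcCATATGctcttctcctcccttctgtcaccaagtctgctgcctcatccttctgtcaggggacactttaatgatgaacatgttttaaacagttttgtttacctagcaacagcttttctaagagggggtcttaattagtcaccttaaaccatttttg
Inside Sox5, upstream of Sox5os2, chr6:144472116-144472315: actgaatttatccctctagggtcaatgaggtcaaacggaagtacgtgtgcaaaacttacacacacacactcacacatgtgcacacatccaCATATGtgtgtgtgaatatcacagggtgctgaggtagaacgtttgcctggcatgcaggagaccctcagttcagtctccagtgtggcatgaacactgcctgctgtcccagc
Upstream of Neurog2, chr3:127625772-127625971: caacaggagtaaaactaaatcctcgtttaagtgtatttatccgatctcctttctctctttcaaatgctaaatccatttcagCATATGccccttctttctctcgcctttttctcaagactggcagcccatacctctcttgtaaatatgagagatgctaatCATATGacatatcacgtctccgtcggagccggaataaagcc

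Shorter stretches of 30 bases around the hexamer are shown for 8 further members, chosen by their scores, by the number of members near 1 gene or by a gene list, because the bases that touch the hexamer differed from those outside the regions.
Upstream of Slc24a5, chr2:125032027-125032056: gttctaagacagCATATGccaccaccacag
Inside Disc1, chr8:125081108-125081137: ttgctgtgtaaaCATATGgccagaaaccca
Inside Gdpd5, upstream of Klhl35, chr7:99449277-99449306: tggggttacaggCATATGccagcacgccca
Inside Atoh8, chr6:72217570-72217599: agtatacctcacCATATGgatggtgtctgt
Inside Tox3, chr8:90322807-90322836: ctggtaaaaaggCATATGttattacagtac
Inside Klhl29, chr12:5239929-5239958: ttcgttaagtacCATATGgccgctggtagg
Inside Epha5, chr5:84397273-84397302: aaagagcagcacCATATGgtctcagtgact
Inside Cdh8, chr8:99368543-99368572: catggctctggcCATATGcgtcacagagaa

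In 4 of these 8 stretches (Disc1, Atoh8, Klhl29 and Epha5) the hexamer was followed by G on the printed strand, and the base before it was C, which is G on the other strand, at Atoh8, Klhl29, Epha5 and Cdh8. Further members met the same choice but are not printed, and their hexamers were not followed by G on the plus strand. The 8 stretches are therefore richer in this G than the full choice, and they give no share for members.

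All 1020 members had a peak of ab1, 1018 had a peak of ab2 and 236 had a peak of ab3. Peaks of ab1 and ab2 alone made up 784 members (76.9%), 2 members combined ab1 and ab3, and 234 members had peaks of all 3 antibodies. The latter share, 22.9% (95% Wilson interval 20.5 to 25.6), stood beside 24.4% over all distal regions and 22.2% over all regions. It was 21.5% in GC-only regions, 23.6% in GA-only regions and 26.2% in distal regions without an E-box. The difference between members and GC-only regions was 1.47 percentage points (95% Newcombe interval −1.41 to 4.49), and that between members and GA-only regions was −0.682 (−3.38 to 2.20). Neither interval left out 0, but with a central window of 400 bp the former difference was 4.08 points (1.02 to 7.31). Against regions without an E-box the difference was −3.24 points (−6.31 to −0.0396), and this interval held 0 in 6 alternatives, for example −1.17 points with a score of at least 100. The regions without an E-box were also wider, with a median of 1128 bp against 796 bp for members, and the part of this width in the difference was not tested. Intervals here cover counting error only, since regions of 1 library are not replicates.

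The highest peak score per member ran from 50.1 to 3196 with ab1, around a median of 259.9. With ab2 it ran from 50.1 to 3100, around 136, and with ab3 from 50.1 to 1337, around 86.9. The order of the antibodies was the same in each class, and the ranges of the classes overlapped almost completely. GC-only regions had medians of 268, 131 and 89.5 for ab1, ab2 and ab3, GA-only regions had 268, 138 and 89.3, and regions without an E-box had 327, 165 and 91.1. On the log10 scale, the median of members minus that of GC-only regions was −0.0042 ± 0.0159 (SD, n = 3 antibodies, lower with 2 of 3, exact sign-flip permutation test, two-sided, p = 1.00). Members minus GA-only regions gave −0.0110 ± 0.0038 (lower with 3 of 3, exact permutation p = 0.25). Members minus regions without an E-box gave −0.0684 ± 0.0420 (lower with 3 of 3, exact permutation p = 0.25), a ratio of 0.854. With 3 antibodies the smallest p of this test is 0.25, so none of these differences could pass a threshold of 0.05. Thus the median scores of TA-only regions were 0.990 and 0.975 times those of GC-only and GA-only regions over the antibodies, as the plot of scores by class shows. When only windows with exactly 1 E-box of any form were compared, which was added after the values had been seen, 296 members had all 3 antibodies in 19.3% of cases, against 20.4% of 1008 GC-only and 20.9% of 1669 GA-only regions (differences −1.18, −6.02 to 4.24, and −1.59, −6.15 to 3.63). In these windows the log10 score differences were 0.0032 ± 0.0605 and 0.0119 ± 0.0349, lower with 1 of 3 antibodies each. The difference from GA-only regions was also positive with a score of at least 100 (0.00597) and with all 3 antibodies (0.00157).

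**Figure D1:**
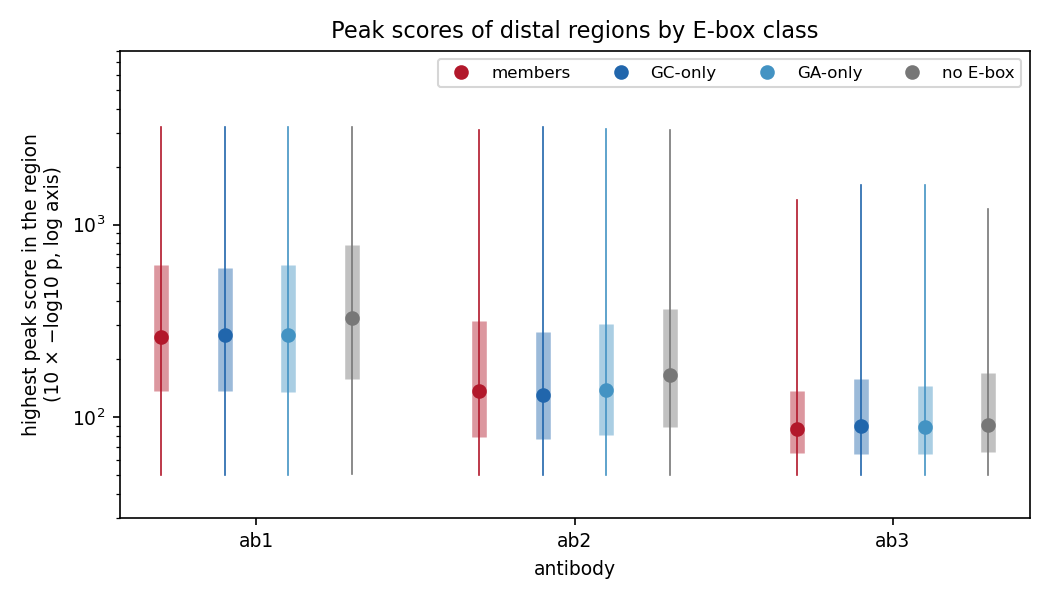
Highest peak score per distal region (10 times −log10 p, log axis) for the antibodies ab1, ab2 and ab3 in members and in 3 other classes. Points are medians, bars the middle 50% of regions with a peak of that antibody and lines the full range. For ab1 the medians of members, GC-only and GA-only regions lie at 259.9, 268 and 268 and that of regions without an E-box at 327.

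The scores of 2 antibodies rose together over members, with Pearson's r of the log10 scores of 0.901 for ab1 and ab2 over 1018 members, 0.652 for ab1 and ab3 over 236, and 0.746 for ab2 and ab3 over 234. Over all distal regions r was 0.896, 0.688 and 0.776. These coefficients describe regions, which share the libraries and, for ab2 and ab3, the control. When each antibody's peaks were classed alone, all gave nearly the same share of TA-only centres, namely 5.30% of 31844 distal ab1 peaks, 5.23% of 21824 ab2 peaks and 5.36% of 5094 ab3 peaks (5.30 ± 0.0633%, SD, n = 3). GC-only centres varied more between antibodies, from 15.6% for ab3 to 16.7% for ab1.

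CATATG occurred once in 877 members, at 2 places in 108 and at 3 or more in 35, which gave 1232 hexamers and at most 8 in 1 window. The 35 members with 3 or more hexamers had all 3 antibodies in 14 cases (95% Wilson interval 25.6 to 56.4%), members with 2 in 16.7% (10.8 to 24.8) and members with 1 in 23.0% (20.4 to 25.9), so the number of hexamers and this share were not ordered. Bases that the reference marks as repeats took 27.5% of the windows with 3 or more hexamers and 11.9% of those with 1, and the part of repeats in these shares was not tested. TA-only does not mean that CATATG was the only E-box. In 354 members (34.7%) no other CANNTG was present, and 666 members (65.3%) held at least 1 further form that the rule allows. CACATG was the commonest with 26.6% of members, followed by CAAATG with 19.1%, CACCTG with 13.8%, CAAGTG with 13.3% and CAACTG with 12.8%, while CACGTG stood at 4.02% and CAATTG at 2.35%. CACATG and CAAATG were more frequent in members than in GC-only regions by 10.5 (7.56 to 13.5) and 5.11 (2.49 to 7.89) percentage points and than in GA-only regions by 7.37 (4.57 to 10.3) and 3.74 (1.26 to 6.42), whereas CACCTG was less frequent, with differences of −7.68 (−10.1 to −5.03) and −3.8 (−6.01 to −1.36). The centres of members also had a lower GC content, with a median of 45.5% against 53.0% in GC-only and 49.5% in GA-only regions, and its part in these differences was not tested.

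The rule looked at the central 200 bp alone, and the forms it bars there were more frequent just outside than in the flanks. A CAGCTG or CAGATG lay elsewhere within the merged region in 671 members (65.8%), so TA-only describes the centre and not the whole region, and the share in stretches of the same length outside was not computed. In the 200 bp that start 100 bp after the midpoint, 22.2% of members held the GA form and 13.0% the GC form, against 17.5% and 9.22% of the flanking windows of the same size that start 1000 bp beyond the region (McNemar's exact test, two-sided, adjusted p = 0.0130 and 0.00913 over 6 comparisons). On the other side of the midpoint these shares were 22.2% and 12.4%, against 14.7% and 9.12% (exact, adjusted p = 8.09e-05 and 0.0197). CATATG itself was in 10.1% and 9.41% of these shoulders, against 5.10% and 4.71% of the flanks (exact, adjusted p = 8.09e-05 and 0.000107). The shoulders were added after the first values had been seen, and the units of these tests are regions and not replicates. Within the central window, which the rule fixed, CATATG stood at 7.11 sites per kb in the inner 50 bp on either side and at 5.05 in the next 50 bp, and it was at 1.01 between 100 and 150 bp and at 0.373 between 950 and 1000 bp. The GA form was densest right outside the window with 1.59 sites per kb between 100 and 150 bp, and the GC form with 0.922, as the plot of forms by position shows.

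**Figure D2:**
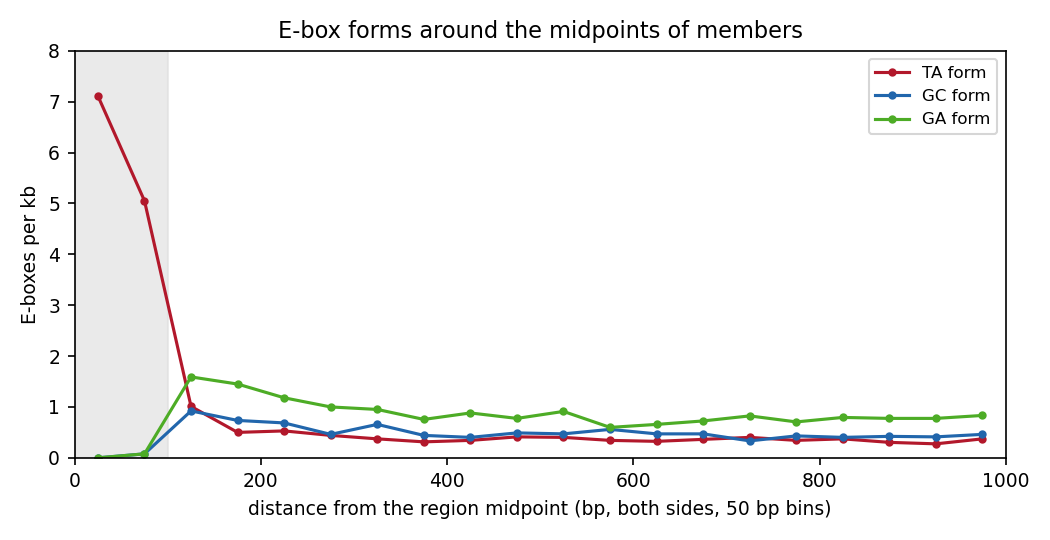
E-boxes per kb of each form around the midpoints of the 1020 members, in bins of 50 bp with both sides joined. The grey band is the window of the rule, which requires the TA form (7.11 per kb in the first bin) and bars the GC and GA forms; beyond it the GA form starts at 1.59 and the GC form at 0.922 per kb, and all 3 forms fall with distance.

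Where the hexamer lay inside the window was not used by the rule. Of the 1232 hexamers, 741 (60.1%, 57.4 to 62.8) lay within 50 bp of the midpoint, against 53.4% of 1885 hexamers in the windows after all regions, a difference of 6.72 percentage points (3.17 to 10.2). With their own peaks ab1 gave a difference of 5.52 (2.41 to 8.63), ab2 5.33 (1.88 to 8.75) and ab3 1.39 (−4.36 to 7.04), and the last interval held 0. Among members with a single hexamer, those with it within 50 bp of the midpoint had all 3 antibodies in 20.4% of 519 cases and the others in 26.8% of 358, a difference of −6.39 points (−12.2 to −0.713). The scores of the inner group were lower with 3 of 3 antibodies, with a mean log10 difference of −0.0214 ± 0.0047 (exact sign-flip permutation test, two-sided, p = 0.25).

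The clearest feature of member hexamers that the rule did not use was the base beside them. Both strands were read 5′ to 3′ from the end of the palindrome, so each hexamer gives 2 neighbours. In members G was the neighbour in 39.5% of cases, against 18.1% for CATATG in the windows after all regions, and A in 7.14% against 21.5%. T took 29.7% against 35.8%, and C 23.6% against 24.5%. G was therefore more frequent beside member hexamers, A and T were less frequent, and C was within 1 percentage point of the windows outside. At least 1 of both neighbours was G in 62.0% of 1226 member hexamers and in 31.4% of 1862 outside, a difference of 30.6 percentage points (27.1 to 34.0). G stood on both sides in 17.0% against 4.83% (difference 12.2, 9.94 to 14.6). For G or T, the pair of bases in the extended E-box of this factor, the share with at least 1 was 89.1% against 80.1% (8.94, 6.38 to 11.4) and the share with both was 49.4% against 27.8% (21.7, 18.2 to 25.1). The measures with G alone were added after the values had been seen.

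Each antibody gave the same pattern with its own peaks. G beside at least 1 end was found in 60.8% of hexamers of ab1 peaks, 62.6% of ab2 and 60.6% of ab3, against 32.5%, 31.2% and 32.6% in their own windows outside, and the differences of 28.4, 31.4 and 28 points all had intervals that left out 0. For G or T on either side, the smallest difference was that of ab3, 5.40 points (0.598 to 9.98), and without ab1 or without ab2 the intervals of 4.76 and 5.08 points held 0. Distal regions whose centre held CATATG together with CAGCTG or CAGATG showed it as well, with G on at least 1 side in 952 of 1586 hexamers (28.6 points over the windows outside, 25.4 to 31.8), so it was not particular to members. The second base also differed, with T in 33.3% against 22.2%, C in 26.8% against 16.8% and A in 21.5% against 39.5%. Farther out G took 19.9% against 19.5% at place 3 and 20.8% (19.3 to 22.5) against 16.0% (14.9 to 17.3) at place 5, and A took 26.9% against 36.1% at place 6, so the bases differed beyond the first place too.

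**Figure D3:**
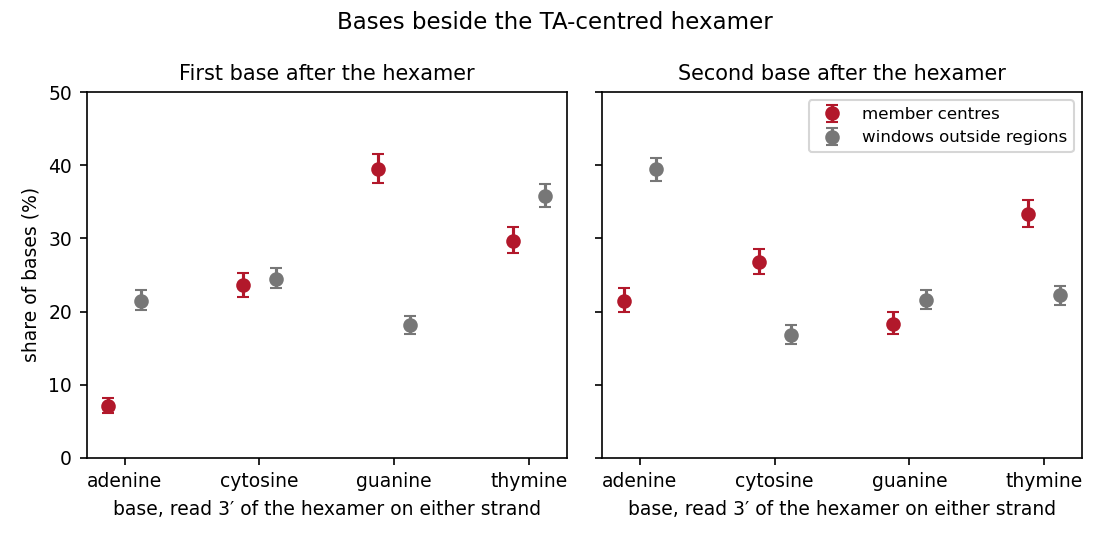
Share of each base at the first and the second place 3′ of CATATG, with both strands read, in member centres and in the windows of 200 bp after all regions. Bars are 95% Wilson intervals. Guanine at the first place is 39.5% in members and 18.1% outside, and adenine is 7.14% and 21.5%.

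Binding measures were also compared among members with a single hexamer by their neighbours. All 3 antibodies were found in 23.2% of 449 members with G or T on both sides, 22.9% of 340 with it on one side and 20.7% of 82 with it on neither, and the first and last differed by 2.43 points (−8.21 to 10.9). The medians were 268, 264 and 251 for ab1 and 143, 134 and 129.9 for ab2. Those of ab3 were 86.9, 84.7 and 133, which were not in order and were highest with G or T on neither side. The mean log10 difference of the first and last was −0.0379 ± 0.1269 (higher with 2 of 3, exact permutation p = 1.00). With G alone the order of the shares was the other way, and members with G on both sides had 21.3%, those with it on one side 22.7% and those without G 24.0% (difference of the first and last −2.63, −10.3 to 5.62). The medians were 212, 268 and 292 for ab1, 124, 140.2 and 136 for ab2 and 86.9, 82.2 and 105 for ab3, so only those of ab1 were in order, and the log10 difference over the antibodies was −0.0866 ± 0.0504 (lower with 3 of 3, exact permutation p = 0.25). Neither interval of these shares left out 0, and the test of the scores could not go below 0.25.

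Other transcription factors that share the cortex with NEUROD2 read other short motifs, and a panel of 27 was searched on both strands in the centre of each member and in the 200 bp window that starts 1000 bp after its end. In members 9 motifs were more frequent in the centre and 4 less (McNemar's exact test, two-sided, Benjamini-Hochberg adjusted p under 0.05 over the panel). The units of these tests are regions of the same libraries and not replicates, so the p-values cover counting error only. Without ab1, 3 motifs were higher and 0 lower over 244 members, and without ab2 2 were higher and 0 lower over 242. Over all distal regions, with far more windows, 55.6% of the panel was more frequent and 33.3% less, so the counts for members lie below this background. Lowest in adjusted p was TTGGCA, the core of NFI sites, in 24.8% of members (22.3 to 27.5) and 8.82% of their flanks (exact, adjusted p = 4.80e-20), with 21.5% over all distal centres. By the ratio of centre to flank the RFX core GTTGCCA stood above it, with 3.36 against 2.81. NFI proteins are nuclear factors of late progenitors and young neurons. TGACAG, the core read by MEIS homeodomain proteins, stood at 23.2% against 14.1% (exact, adjusted p = 1.82e-06), with 26.5% over all distal centres. GTTGCCA, part of RFX sites, stood at 4.61% against 1.37% (exact, adjusted p = 0.000129), with 4.23% over all distal centres. TAATTA, which many homeodomain proteins bind, stood at 10.0% against 5.69% (exact, adjusted p = 0.00168), with 6.52% over all distal centres. GGTGTGA, the core of T-box sites such as that of TBR1, stood at 4.12% against 2.16% (exact, adjusted p = 0.0350), with 4.48% over all distal centres. ATGCAT, a core of POU sites, stood at 11.1% against 6.67% (exact, adjusted p = 0.00225), with 5.80% over all distal centres. The other 3 were E-boxes, CACATG with 1.41 times its flank share, CAAATG with 1.32 times and CAACTG with 1.49 times.

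Several of these motifs can share bases with CATATG itself, since the POU, MEIS, NFI, RFX and T-box cores, read on either strand, can all overlap its end. With the bases of every CATATG hidden in centres and flanks, an alternative added after the values had been seen, 7 motifs remained above and 4 below. TTGGCA kept 24.1% against 8.82% (exact, adjusted p = 9.53e-19), TGACAG 22.4% against 14.1% (exact, adjusted p = 2.08e-05), GTTGCCA 4.12% against 1.37% (exact, adjusted p = 0.000946) and TAATTA its 10.0%. ATGCAT fell to 7.94% against 6.37% (exact, adjusted p = 0.317) and GGTGTGA to 3.92% against 2.16% (exact, adjusted p = 0.0675), so neither call was kept, although the share of the latter in centres moved by little. The motifs below their flanks were AGGTCA, the core of nuclear receptor sites, with 5.10% against 10.6% (exact, adjusted p = 3.14e-05), AAGTTT, read by MYT1, with 7.75% against 12.3% (exact, adjusted p = 0.00225), the SOX core AACAAT with 8.04% against 12.5% (exact, adjusted p = 0.00299) and TAATCC, read by OTX proteins, with 4.90% against 8.82% (exact, adjusted p = 0.00225). The other 14 motifs, among them those of AP-1, FOX, ETS, TCF/LEF and MEF2 proteins and the octamer of POU proteins, did not pass the test in members.

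**Figure D4:**
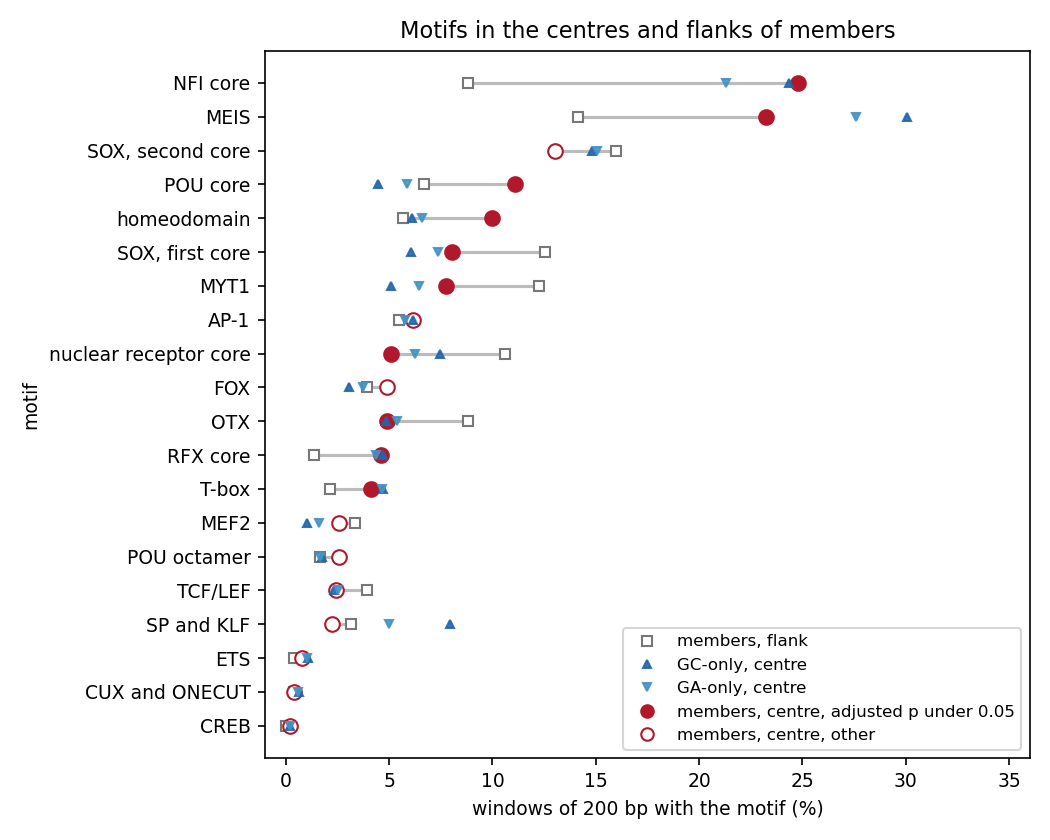
Share of 200 bp windows that hold each of the 20 panel motifs other than E-boxes. Squares are the flanks and circles the centres of members, filled where McNemar's exact test passed an adjusted p of 0.05, and triangles are the centres of GC-only and GA-only regions. The NFI core reaches 24.8% in centres against 8.82% in flanks, and the nuclear receptor core 5.10% against 10.6%.

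Each antibody's own peaks gave the same directions for the NFI, MEIS and homeodomain motifs, although with 273 windows ab3 called fewer of the panel. TTGGCA stood at 23.7% against 9.0% for ab1, 25.4% against 10.2% for ab2 and 21.2% against 11.4% for ab3, and the MEIS core at 23.1%, 22.2% and 26.7% against 13.0%, 14.4% and 15%. For the homeodomain motif the centres had 9.42%, 9.37% and 11.4% and the flanks 6.69%, 5.43% and 5.13%, and the last pair did not pass (McNemar's exact test, adjusted p = 0.0508). The octamer of POU proteins, which did not pass in members, passed with own peaks of ab1 (2.73% against 1.13%, exact, adjusted p = 0.00179) and ab2 (2.98% against 1.40%, exact, adjusted p = 0.0276). With ab3 the octamer ran the other way (0.733% against 1.83%, exact, adjusted p = 0.720). The FOX motif passed with ab2 (4.99% against 2.45%, exact, adjusted p = 0.00521). CACGTG was higher with ab1 (4.68% against 1.95%, exact, adjusted p = 5.23e-05), and the TCF/LEF motif was lower with ab2 (2.54% against 4.38%, exact, adjusted p = 0.0397). Own peaks of ab1 called 11 motifs higher and 4 lower, those of ab2 10 and 5, and those of ab3 3 and 0. The 3 called with ab3 were the NFI core, the MEIS core and the E-box CACATG.

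Set against the other classes of distal regions, members differed in some of these motifs and not in others. TAATTA was more frequent in members than in GC-only regions by 3.89 percentage points (1.98 to 6.03) and than in GA-only regions by 3.39 (1.58 to 5.47). TGACAG was less frequent, by −6.83 points (−9.79 to −3.72) and −4.35 points (−7.09 to −1.45), and so was GGGCGG of SP and KLF proteins, by −5.71 (−6.95 to −4.29) and −2.73 (−3.67 to −1.51). For TTGGCA the difference was 0.478 points from GC-only regions (−2.49 to 3.58) and 3.49 from GA-only regions (0.734 to 6.41). For GTTGCCA both intervals held 0 (−0.0944, −1.47 to 1.52, and 0.231, −1.02 to 1.77). The POU core had a larger difference than these in favour of members, 6.63 points (4.68 to 8.80) from GC-only and 5.23 (3.34 to 7.37) from GA-only regions, but it can overlap CATATG, which the other classes lack, and this comparison was not made with the hexamer hidden. The MEF2 motif, which did not differ from the flanks past the threshold, was higher by 1.55 (0.644 to 2.74) and 0.959 points (0.0840 to 2.15). The lower GC content of the member centres stands beside these differences, and its part in them was not tested. Within members, the 253 with TTGGCA had all 3 antibodies in 18.6% of cases and the others in 24.4% (difference −5.80, −11.1 to 0.197), and the 102 with TAATTA in 15.7% against 23.7% (−8.06, −14.5 to 0.634). The difference was positive for CACATG (5.44, −0.375 to 11.7) and CACCTG (6.30, −1.07 to 14.7), and none of the intervals of the 27 motifs left out 0.

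Members lay mostly in introns and between genes. Of the 1020 midpoints, 547 (53.6%, 50.6 to 56.7) were in introns of the longest transcripts, 448 (43.9%) outside transcripts and 25 (2.45%, 1.67 to 3.59) in exons. The share in exons was lower than in GC-only regions, with 6.18%, by −3.72 points (−4.91 to −2.34), and than in GA-only regions, with 4.33%, by −1.88 points (−2.83 to −0.637). With their own peaks it was 2.43%, 2.45% and 4.40% in the order of the antibodies, which was lower than GC-only peaks with 3 of 3 antibodies (mean difference −3.39 ± 0.959 points, exact permutation p = 0.25) and lower than GA-only peaks with 2 of 3. The share in introns differed from neither class (−1.20, −4.72 to 2.30, and 1.04, −2.28 to 4.33). The closest TSS belonged to a protein-coding gene for 27.9% of members, against 37.1% of GC-only regions (difference −9.11, −12.3 to −5.83) and 33.6% of GA-only regions (−5.62, −8.54 to −2.55), and this share was lower with 3 of 3 antibodies in both comparisons.

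The median distance from a member to the closest TSS was 16835 bp, against 14963 bp for GC-only and 15713 bp for GA-only regions. Own peaks gave 16246, 16768 and 17494 bp for the 3 antibodies (16836 ± 627 bp, SD, n = 3), farther than GC-only peaks by 1864 ± 106 bp and than GA-only peaks by 972 ± 216 bp with 3 of 3 antibodies (exact permutation p = 0.25 for each). The share of members beyond 10 kb was higher than in GC-only regions by 4.59 points (1.21 to 7.87). Against GA-only regions this difference was 1.11 points (−2.06 to 4.17), and with own peaks 0.331 ± 1.47 points, higher with 2 of 3 antibodies. Upstream and downstream positions were near balance, with 48.1% of members upstream. When the distance rule was dropped, the share of regions with a TA-only centre rose with distance from 0.820% (0.591 to 1.14) within 0.5 kb of a TSS to 4.12% (3.04 to 5.56) at 1 to 2 kb, 5.61% (5.12 to 6.15) at 20 to 50 kb and 7.70% (6.79 to 8.73) beyond 100 kb. Neighbouring bins between 1 and 50 kb had intervals that overlapped. CATATG was in fewer centres than flanks within 1 kb, at 2.22% and 4.79%, a ratio of 0.463, while CAGCTG was in more, at 19.5% and 8.28%, and CAGATG was nearly level at 15.8% and 14.8%. Between 1 and 50 kb the ratios were 2.33 for CATATG, 3.19 for CAGCTG and 2.98 for CAGATG, and beyond 50 kb 2.39, 3.43 and 3.22. The share with all 3 antibodies among TA-only regions showed no order with distance and lay between 15.8% and 25.9% in the 9 bins.

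**Figure D5:**
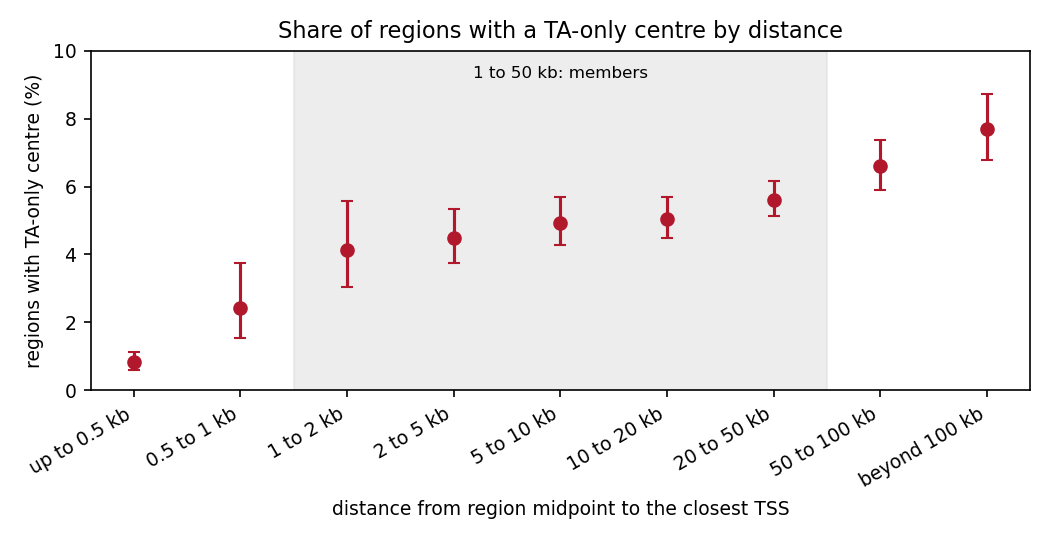
Share of all merged regions with a TA-only centre in 9 bins of distance to the closest TSS, with 95% Wilson intervals. The share is 0.820% within 0.5 kb and 7.70% beyond 100 kb, and the grey band marks the distances of members.

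The members with the highest scores reached the upper end of the score range. A score of 3100 was shared by 18 members with ab1 and by 3 with ab2, so the order of the strongest members rests on ab2 and ab3. Highest by the mean log10 score was a region on chromosome 10 from 19276803 to 19278093, 13541 bp upstream of the long noncoding RNA Gm33056 and 79085 bp upstream of Olig3, a bHLH gene, with 3100, 3100 and 1337 in the order ab1, ab2 and ab3. Its window is the first one printed above and holds CATATG as its single E-box. Next came a region 36044 bp upstream of Slc24a5, a cation exchanger of pigment cells, with 3100, 3100 and 782, and one in an exon of Gm16116, an antisense transcript within Wwox, with 3100, 2378 and 896. The fourth lay in Sox5, a SOX gene that sets the timing of deep-layer neuron types, with 3100, 2136 and 693. A second member inside Sox5 had 2640, 1428 and 202, so both members near Sox5os2 carried all 3 antibodies. In the printed window of the former, 47.0% of the bases are marked as repeats.

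The other 6 of the 10 highest members had 3100 with ab1, between 1759 and 3100 with ab2 and between 423 and 633 with ab3. They lay near Gm12409 and inside Disc1, a scaffold protein of neurons, Lrrc75a, Dlgap2, a scaffold of the postsynaptic density, Gdpd5 and Atoh8, a bHLH gene. The member in Atoh8 spanned chromosome 6 from 72215235 to 72220004, 17957 bp downstream of the TSS, and scored 3100, 1759 and 539. In the window of the member inside Gdpd5, 41.0% of the bases are marked as repeats. Of these 10 members 7 lay inside the longest transcript of a protein-coding gene.

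By closest TSS, members fell to 958 of 55413 genes (1.73%), of which 270 were protein-coding. All distal regions, of which members are 5.12%, fell to 11516 genes (20.8%). Of the genes with a member, 900 had 1, 54 had 2 and 4 had 3, and 402 (42.0%) were also closest to a GC-only or GA-only region. The 4 genes with 3 members were Tox3, AC167169.1, Gm23154 and Gm11819, and none of their 12 members had a peak of ab3. At Tox3, which encodes an HMG-box protein, the members scored 288 and 155, 440.3 and 238, and 125 and 61.0 for ab1 and ab2, with 2 in introns and 1 upstream. The 3 members at AC167169.1 lie inside Dscam, an adhesion molecule of neurons, and scored between 94.4 and 229.9 with ab1. The closest other member lay at a median of 499634 bp, and 4.90% of members had one within 10 kb. For the closest other region of any kind the median was 10772 bp, and 47.6% of members had one within 10 kb.

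Most of the closest genes were noncoding, so members were also assigned to the closest protein-coding TSS at any distance, a count added after the first one had been seen. The median distance was then 58156 bp, 474 members (46.5%) lay inside the longest transcript of a protein-coding gene, and 865 protein-coding genes (3.94% of 21938) were closest to at least 1 member. Of all 19911 distal regions, 10119 lay inside such a transcript, and 7095 protein-coding genes were closest to at least 1 of them. Runx1t1, a corepressor of the ETO family, had the most with 8 members of 28 distal regions, at distances from 26893 to 317683 bp. The 2 of them with all 3 antibodies scored 2425, 1377 and 133, and 1649, 909 and 129, while the other 6 scored between 98.8 and 766 with ab1. Zfp608 had 5 members of 54 regions, and Lhfpl3 had 4 of 8, all inside the gene. Auts2, Negr1 and Klhl29 had 3 each, as had further genes, 23 in all. Inside Klhl29 a member had 3100, 2293 and 359 and another 99.1 and 137, while the last one, with 3100, 1565 and 399, lay 671189 bp upstream. These genes were chosen for their counts, and no test was made of them.

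Genes of cortical development were counted by lists, which were chosen with results of these data known. By closest TSS of any gene type, 0 of 20 genes of layer identity had a member, with 0 of their 30 distal regions, which allows a share of up to 10.0%. The same held for 0 of 17 genes of migration and Reelin signalling, with 0 of 26 regions and up to 11.5%, and for 0 of 13 genes of interneurons and 0 of 8 of progenitors, with 5 and 3 regions. In axon guidance 1 of 34 genes had a member, in adhesion and synapse 1 of 22, and among bHLH factors and partners 2 of 17, against 1.23% of all protein-coding genes. Per distal region, members made up 4.17% over all protein-coding genes, 7.14% of 28 for bHLH factors and partners, 3.23% of 31 for adhesion and synapse and 1.59% of 63 for axon guidance, which are counts of 1 or 2 members.

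Epha5, a receptor for ephrins in axon guidance, held a member in an intron 19581 bp downstream of its TSS on chromosome 5 from 84397024 to 84397656, with scores of 929.9, 623 and 125 in the order of the antibodies. Cdh8, a cadherin, held one 47930 bp downstream with 115 and 65.6 and no peak of ab3, in a window with 76.5% repeat bases. Neurog2, which commits progenitors to the excitatory lineage, had a member 7263 bp upstream on chromosome 3 from 127625190 to 127626554 with 959 and 659.9 and no peak of ab3, and its printed window holds CATATG at 2 places. Neurod6, the closest relative of Neurod2 in these neurons, had a member in an exon 2409 bp downstream of its TSS with 116 and 117 and no peak of ab3. Both bHLH genes therefore had TA-only members of ab1 and ab2 alone, that of Neurog2 above the median scores of members and that of Neurod6 below them.

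By closest protein-coding TSS more genes of the lists had a member, since noncoding genes that lay closer were left out. Layer identity had 8 members at 7 genes, 5.80% of its 138 distal regions (2.97 to 11), beside 5.12% over all genes. Besides the 2 in Sox5 they included 1 each assigned to Rorb, Zfpm2, Tbr1, Bcl11b and Bcl11a, these without ab3, with ab1 scores from 111 at Bcl11a to 850.4 at Rorb. Those of Rorb, Bcl11b and Bcl11a lay 195511, 233420 and 405901 bp from the TSS and outside protein-coding transcripts. That of Zfpm2 lay inside the gene, 272468 bp from its TSS. The member of Tbr1, a T-box gene of deep-layer neurons, lay 38759 bp upstream with 175 and 199. Migration and Reelin had 4 members assigned to Cdk5r1, Rnd3, Dclk1 and Fyn, 5.33% of 75 regions (2.09 to 12.9), with ab1 scores from 439 to 1089 and none with ab3. Only that of Dclk1 lay inside its gene, and that of Cdk5r1 lay inside Myo1d, 27482 bp from the TSS of Cdk5r1. Axon guidance had 15 members at 12 genes, 5.75% of 261 regions (3.51 to 9.26), 5 of them with all 3 antibodies. Some lay far from the gene, and those assigned to Efnb2 were 1263568 and 1552200 bp from its TSS. The highest member of this list was assigned to Nrp2, a receptor of semaphorins, 487059 bp upstream of it and inside Pard3b, with 2958, 2036 and 380.5, followed by one inside Sema4d with 3196, 1205 and 156, in a window with 72.5% repeat bases. Adhesion and synapse had 13 members at 10 genes, 6.84% of 190 regions (4.04 to 11.4), all inside their gene but 1 of those at Cdh13 and the one at Tenm4. The highest of these was in Negr1 with 1860, 993 and 126. Among bHLH factors and partners, 6 members fell to Tcf4 (3), Hes1, Neurog2 and Neurod6, 6.06% of 99 regions (2.81 to 12.6), and progenitor genes had 3 members at Sox2 and Eomes, 8.11% of 37 (2.80 to 21.3). Tcf4 encodes an E protein, the dimer partner of neuronal bHLH factors, and its members scored 152 to 269 with ab1. Interneuron genes had 0 of 9 regions. Every list's interval held the 5.12% of all genes.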

How the data were processed

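NEUROD2 occupancy was measured by ChIP-Seq in E14.5 cortex with 3 antibodies and 2 GFP controls. The authors aligned reads to mm10 with Bowtie, discarded duplicate and multi-mapping reads, and ran MACS on each antibody with the GFP library of its host as control. The deposited peak score is 10 times −log10 of the caller's p-value. The GFP libraries entered only as those controls, and read counts per library were not used here.

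From the peak lists, overlapping peaks were merged, and region midpoints were placed on GRCm38 with GENCODE M21, using the longest-span transcript of each of 55413 genes. E-boxes were searched in the central 200 bp and controls in windows 1000 bp outside. Shares have 95% Wilson and their differences 95% Newcombe intervals, paired shares McNemar's exact test with Benjamini-Hochberg adjustment, and scores an exact sign-flip test over antibodies. BALB/c variants were not seen, since the reference is of another strain. Functions were tested on simulated data. Python 3.11.15, numpy 2.4.6, scipy 1.17.1 and matplotlib 3.10.9 were used.

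Members, gene lists and motifs were chosen with earlier results of these data known. Genes named were the closest genes of the 10 members with the highest mean log10(score + 1), the 10 genes with the most members (ties by summed score) and list genes with a member. The other protein-coding genes were chosen after their values were seen. Alternatives were a score of at least 100, an overlap of 50%, all 3 antibodies, windows set at the highest peak, each antibody left out, other TSSs, other windows and the other flank, and, added later, hidden hexamers, windows with few repeat bases and windows with 1 E-box. The values of 1 listed gene are not reported here.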

Additional observations from a re-analysis of the deposited data

How the results depend on the processing

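Of 137 values recomputed under an alternative, 99 were classed as the same, 28 as moved, 9 as weaker and 1 as stronger. Same meant a count within a set factor, a share inside the main interval, or a score or distance moved by less than the SD. For differences of shares, the interval had to keep holding or leaving out 0, and sign changes between intervals that held 0 counted as the same. Thus the difference from GA-only regions in the share with all 3 antibodies went from −0.682 to 0.239 points with windows of 400 bp. The number of members was 622 with a score of at least 100, 493 with protein-coding TSSs only and 234 with all 3 antibodies, and from 242 (without ab2) to 1018 (without ab3) with 1 antibody left out. The share with all 3 antibodies was 16.2% with a score of at least 100. Its difference from GC-only regions became 4.08 points (1.02 to 7.31) with a central window of 400 bp. The difference from regions without an E-box kept its sign, but its interval held 0 with a score of at least 100 (−1.17), an overlap of 50% (−2.79), protein-coding TSSs (−1.32), windows of 100 bp (−1.77) and 400 bp (−1.15), and windows with at most 50% repeat bases (−3.20).

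The log10 score difference from GC-only regions was −0.0245 with protein-coding TSSs and from −0.0446 to 0.000958 with 1 antibody left out. That from GA-only regions was 0.00597 with a score of at least 100, 0.00157 with all 3 antibodies, −0.00617 at the highest peak, −0.0358 with protein-coding TSSs, −0.00321 with all transcripts, −0.00459 and −0.0179 with windows of 100 and 400 bp, 0.0119 with 1 E-box, and from −0.0419 to −0.0106 with 1 antibody left out, so its sign was not stable. Against regions without an E-box it ran from −0.0905 to −0.0479 with 1 antibody left out. The share in introns was 57.4% with protein-coding TSSs and from 50% to 53.5% with 1 antibody left out. The median distance was 15484 bp with a score of at least 100, 22275 bp with protein-coding TSSs, 13946 bp with all transcripts, and from 15410 to 16835 bp with 1 antibody left out.

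The excess of G or T beside the hexamer was 4.61 points with all 3 antibodies (−0.810 to 9.77) and from 4.76 (without ab1) to 9.07 (without ab3) with 1 antibody left out. The motifs that differed from their flanks numbered 3 with all 3 antibodies, 8 with windows of 400 bp, and from 2 (without ab2) to 13 (without ab3) with 1 antibody left out, where the settings without ab1 or ab2 hold 244 and 242 members. The cause of the other changes was not tested. No paired analysis was possible because the GFP libraries entered only as controls of the peak caller and no result compares them with NEUROD2. The read totals of the libraries were not used here, and the part of depth in the missing peaks of ab3 was not tested.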
